A study of Mus musculus with 6 samples.

Results

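The genes described here encode cerebellins, neurexins and neuroligins, proteins that hold the pre- and postsynaptic sides of a synapse together, and were chosen by name as the rows Cbln1, Cbln2, Cbln3, Cbln4, Nrxn2, Nrxn3, Nlgn1, Nlgn2 and Nlgn3, which are 9 of the 32286 genes in the deposited count tables. They were followed in nuclei of whole cerebellum from 6 mice aged 12 weeks, sequenced 1 library per mouse. Of these, 3 SCA1 mice carried the Pcp2-ATXN1[82Q] transgene, a model of spinocerebellar ataxia type 1 in which human ATXN1 with an expanded CAG repeat is driven by the Pcp2 promoter and is thus made in Purkinje cells. The other 3 mice were wild-type (WT) C57Bl6 littermates without the transgene, and the transgenic line had been backcrossed to the same strain. The transgene is an added copy and no allele was deleted, so the mouse Atxn1 gene was present in both groups, and among cerebellar cells the model expresses mutant ATXN1 in Purkinje cells.

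Cerebellins are secreted proteins of the C1q family. In the cerebellar cortex, Cbln1 released by granule neurons at parallel fibre synapses binds neurexins on the axon and a receptor on the Purkinje cell spine, and this bridge is needed to keep these synapses. Cbln3 is known to be secreted as a complex with Cbln1, while Cbln2 and Cbln4 are best known from other brain regions. Neurexins are presynaptic receptors, and neuroligins are their classical postsynaptic partners, Nlgn1 mainly at excitatory synapses, Nlgn2 mainly at inhibitory synapses and Nlgn3 at both.

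The 45473 nuclei carried 24 cell type labels assigned by the authors, and 11 labels had at least 20 nuclei in each mouse. Counts were summed per mouse and label, and levels are given as CPM, the unique molecular identifiers (UMIs) of a gene per 1000000 UMIs of all genes in that sum, with the mean and SD over the 6 mice unless said otherwise. The label of granule neurons (Neuron.Slc17a7.Gabra6) held 37532 nuclei, that of Purkinje cells (Neuron.Gad1Gad2.Pcp2) 292, that of Bergmann glia (Astrocyte.Gja.Slc1a3) 1243, that of velate astrocytes (Gja1.Htra1) 1014 and that of oligodendrocytes (Oligodendroyte.Trf.Il33) 1384, and in each of these 5 labels every marker on its list was higher than in the other labels. These labels also held markers of other cells. Both unipolar brush cell markers were highest in granule neurons, at a summed 23.1 CPM. Oligodendrocyte precursor markers had their highest sum in oligodendrocytes, at 286 CPM, with 1 of 3 highest there. Markers were ranked among the 11 labels only, so labels with fewer nuclei, such as Neuron.Gad1Gad2.Lgi2 and those named Endothelial_Stalk, were not compared. The 4 inhibitory neuron labels among the 11 are called by the end of their names. Pvalb-Nefh with 1224 nuclei and Pvalb-Rab3b with 458 were high in Sorcs3 at 2036 ± 441 and 1723 ± 518 CPM, whereas Pvalb-Cadm1 with 289 nuclei and Pvalb-Chrm2 with 263 were high in Nxph1 at 4605 ± 1279 and 2604 ± 1217 CPM. The label Neuron.Slc17a6.Nrgn held 757 nuclei and is called by its name. Of the 3 Golgi cell markers, Lgi2 and Slc6a5 were highest in Pvalb-Chrm2 at 60.9 ± 21.7 and 44.7 ± 19.0 CPM, and Grm2 was highest in Slc17a6.Nrgn at 7.9 ± 8.9 CPM. The label Endothelial_Tip.Dcn.Nnat with 242 nuclei did not match its name in full. All 3 fibroblast markers, with Dcn at 374 ± 153 CPM, and 2 of 3 mural cell markers were highest there, while of the 3 endothelial markers Flt1 was highest there at 94.9 ± 26.0 CPM and Cldn5 and Pecam1 were at 1.9 ± 2.6 and 2.2 ± 2.2 CPM, so it is called Dcn.Nnat here.

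Libraries held 18916647 to 98366627 UMIs, and the median UMIs per nucleus ran from 2246.5 in WT 2 to 7253 in WT 1. SCA1 1 and WT 1, taken as a first sequencing run, had the most UMIs and no nucleus under 3000 UMIs, while 4784 of the 6710 nuclei of WT 2 lay under that number. Across libraries, 254 cell barcodes occurred in more than 1 library. Levels across labels are a description without a test, since the same counts had been used to assign the labels.

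The genes differ widely in length, and reads in introns were counted. On GRCm38 (mm10), Cbln1 lies at chr8:87468405-87472609 on the minus strand, Cbln2 at chr18:86711110-86718283 on the plus strand, Cbln3 at chr14:55878913-55884392 on the minus strand and Cbln4 at chr2:172036233-172043466 on the minus strand, so each cerebellin gene spans 4.2 to 7.2 kb. Nrxn2 spans 125.4 kb at chr19:6418731-6544169 and Nrxn3 1612.1 kb at chr12:88722876-90334935, both on the plus strand. Nlgn1 spans 906.2 kb at chr3:25426215-26332460 on the minus strand, Nlgn2 14.7 kb at chr11:69823122-69837784 on the minus strand and Nlgn3 26.8 kb at chrX:101299168-101325963 on the plus strand. Levels are therefore compared for 1 gene between labels, and the CPM of different genes are not ranked. Ratios between genes are compared only across labels. Levels of different genes are set side by side only as percentages of each gene's own granule level.

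By CPM, Cbln1 and Cbln3 were highest in granule neurons in 6 of 6 mice and had their lowest mean, among the 11 labels, in Purkinje cells. In granule neurons, Cbln1 was at 227, 168 and 101 CPM in the SCA1 mice and at 262, 124 and 84.0 CPM in the WT mice. Cbln3, its partner in the secreted complex, was at 268, 198 and 155 CPM in the SCA1 mice and at 319, 194 and 144 CPM in the WT mice. In both genotypes mouse 1 had the highest and mouse 3 the lowest level, and the genotypes overlapped. In Purkinje cells, the cells that receive the parallel fibre synapses, Cbln1 was at 18.7 ± 17.6 CPM and Cbln3 at 24.0 ± 19.7 CPM, which is 9.83% ± 5.49 and 10.0% ± 5.78 of the granule level in the same mouse. After thinning each nucleus to 3000 UMIs, 37.1% ± 13.5 of granule neuron nuclei and 7.12% ± 4.54 of Purkinje cell nuclei had a Cbln1 UMI. Without thinning these shares were 55.2% ± 22.9 and 39.6% ± 28.5, at median depths of 5923 UMIs for granule neuron and 36467 UMIs for Purkinje cell nuclei.

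The levels of Cbln1 and Cbln3 between these ends were spread over every label. Velate astrocytes, oligodendrocytes and Bergmann glia followed granule neurons with 84.7 ± 67.3, 81.5 ± 69.5 and 75.4 ± 59.5 CPM of Cbln1, and the Slc17a6.Nrgn label with 31.3 ± 25.3 CPM stood just above Purkinje cells. Only granule neurons against velate astrocytes and the Slc17a6.Nrgn label against Purkinje cells kept the order of neighbouring labels in 6 of 6 mice for Cbln1, and the other neighbours did so in 3 to 5 mice. Granule neuron markers were found in every label too. Gabra6, a GABA-A receptor subunit specific to granule neurons, was at 19.0% ± 9.06 of its granule level in velate astrocytes, at 15.2% ± 9.90 in Bergmann glia and at 4.67% ± 4.13 in Purkinje cells, where Cbln1 was at 46.2% ± 18.1, 41.4% ± 15.8 and 9.83% ± 5.49. Rbfox3, a general neuron gene on the granule neuron list, was also lowest in Purkinje cells at 5.26% ± 3.31, but was highest in Slc17a6.Nrgn at 30.2% ± 4.23 and in Pvalb-Chrm2 at 19.4% ± 5.90, where Cbln1 was at 17.1% ± 6.77 and 24.1% ± 8.25. The number of Cbln1 UMIs per Gabra6 UMI was 0.230 ± 0.131 in granule neurons and was higher than there in 59 of 60 pairs of a mouse and another label, with means from 0.464 to 0.839. For Cbln3 it was 0.303 ± 0.137 in granule neurons and was higher in 60 of 60 pairs. Of the granule neuron markers, Slc17a7 was above its granule ratio to Gabra6 in 51 of 60 pairs and Etv1 in 46 of 60, and Rbfox3 was not counted. The mean percentage of Rbfox3 was below that of Gabra6 in Bergmann glia, velate astrocytes, oligodendrocytes, Dcn.Nnat, Pvalb-Nefh and Pvalb-Rab3b, for example 14.1% against 19.2% in oligodendrocytes. It was above that of Gabra6 in Purkinje cells, Slc17a6.Nrgn, Pvalb-Cadm1 and Pvalb-Chrm2. The ratio of Cbln1 to Cbln3 was 0.731 ± 0.121 in granule neurons and had means between 0.680 and 1.31 in the other labels. How much of the Cbln1 and Cbln3 RNA outside granule neurons was free RNA in the droplets was not tested.

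**Figure D1:**
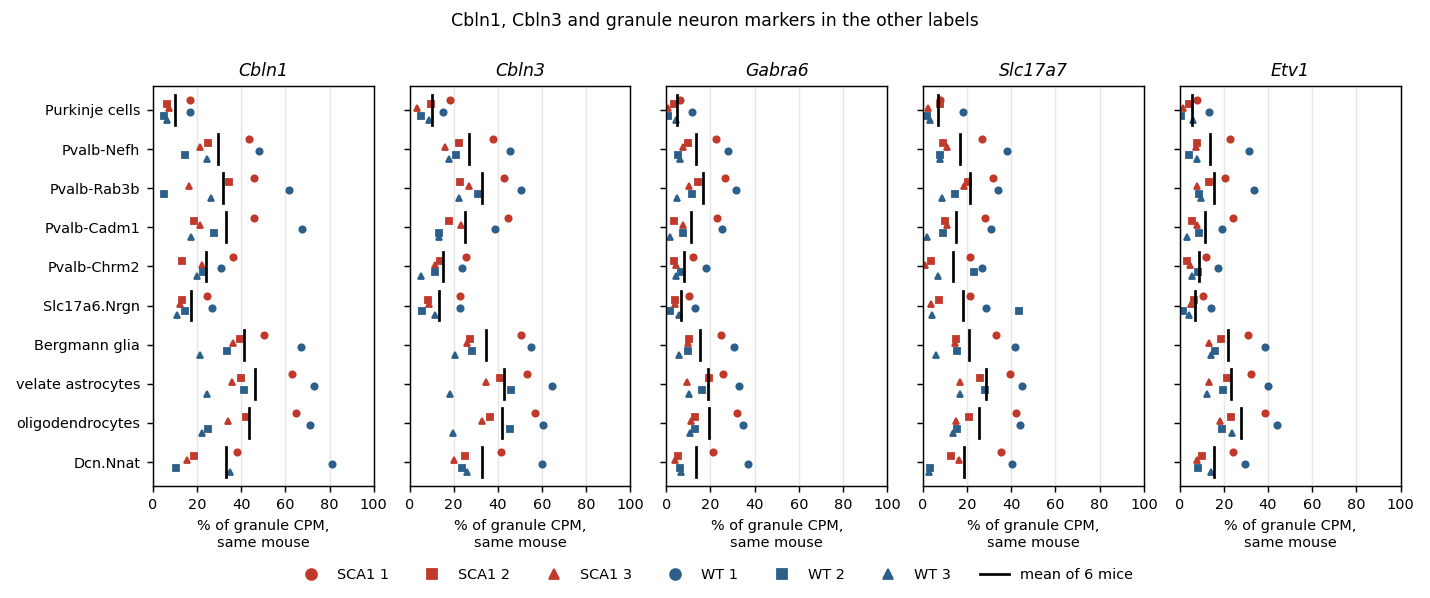
Level of Cbln1, Cbln3 and the granule neuron markers Gabra6, Slc17a7 and Etv1 in 10 labels, as a percentage (x axis) of the granule neuron CPM of the same mouse. Each symbol is a mouse and the black bar the mean of 6 mice. Rbfox3, also on the granule neuron list, is not shown. Purkinje cells have the lowest mean for all 5 genes, and the means of Cbln1 and Cbln3 lie to the right of that of Gabra6 in each label.

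Cbln2 and Cbln4 had a different place. Both were highest in the Slc17a6.Nrgn label, where Cbln2 was at 27.4, 19.9 and 12.7 CPM in the SCA1 mice and at 31.3, 51.1 and 18.3 CPM in the WT mice. In the other 10 labels, the mean level of Cbln2 was between 0.28 and 1.89 CPM, and the Slc17a6.Nrgn label was the highest in 6 of 6 mice. Cbln4 in that label was at 8.03, 9.94 and 8.75 CPM in the SCA1 mice and at 6.78, 32.8 and 5.35 CPM in the WT mice, and WT 2, with 22 nuclei of the label, stood above the rest. The Pvalb-Chrm2 label followed with 3.74 ± 4.45 CPM of Cbln4, reached 11.8 CPM in SCA1 1 and was listed at 0 in WT 2 and WT 3. There the SCA1 mice, at 11.8, 5.50 and 2.78 CPM, all lay above the WT mice, at 2.32, 0 and 0 CPM, as did 3.15% of the genes tested in that label, but Cbln4 did not pass the filter on low counts there. Without that filter its log2 fold change was 2.58 with an adjusted p of 1.00 by edgeR, a fitted value that depends on the prior count where libraries are at 0. These levels rest on few molecules, 429 UMIs of Cbln2 and 136 UMIs of Cbln4 in the Slc17a6.Nrgn label over all mice and 31 UMIs of Cbln4 in Pvalb-Chrm2. Cbln2 in velate astrocytes, which did not pass the filter either, was also higher in all SCA1 mice, on 7 UMIs in all. It was at 1.52, 0.917 and 0.996 CPM in the SCA1 mice and at 0.469, 0 and 0 CPM in the WT mice. After thinning, 7.95% ± 4.01 of the Slc17a6.Nrgn nuclei had a Cbln2 UMI and 2.87% ± 2.24 a Cbln4 UMI, against 0.526% ± 0.470 and 0.180% ± 0.153 of granule neuron nuclei. Without thinning the shares in the Slc17a6.Nrgn label were 30.0% ± 6.85 and 11.7% ± 5.85 at a median depth of 20677 UMIs, and those in granule neurons 1.11% ± 1.08 and 0.357% ± 0.396.

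**Figure D2:**
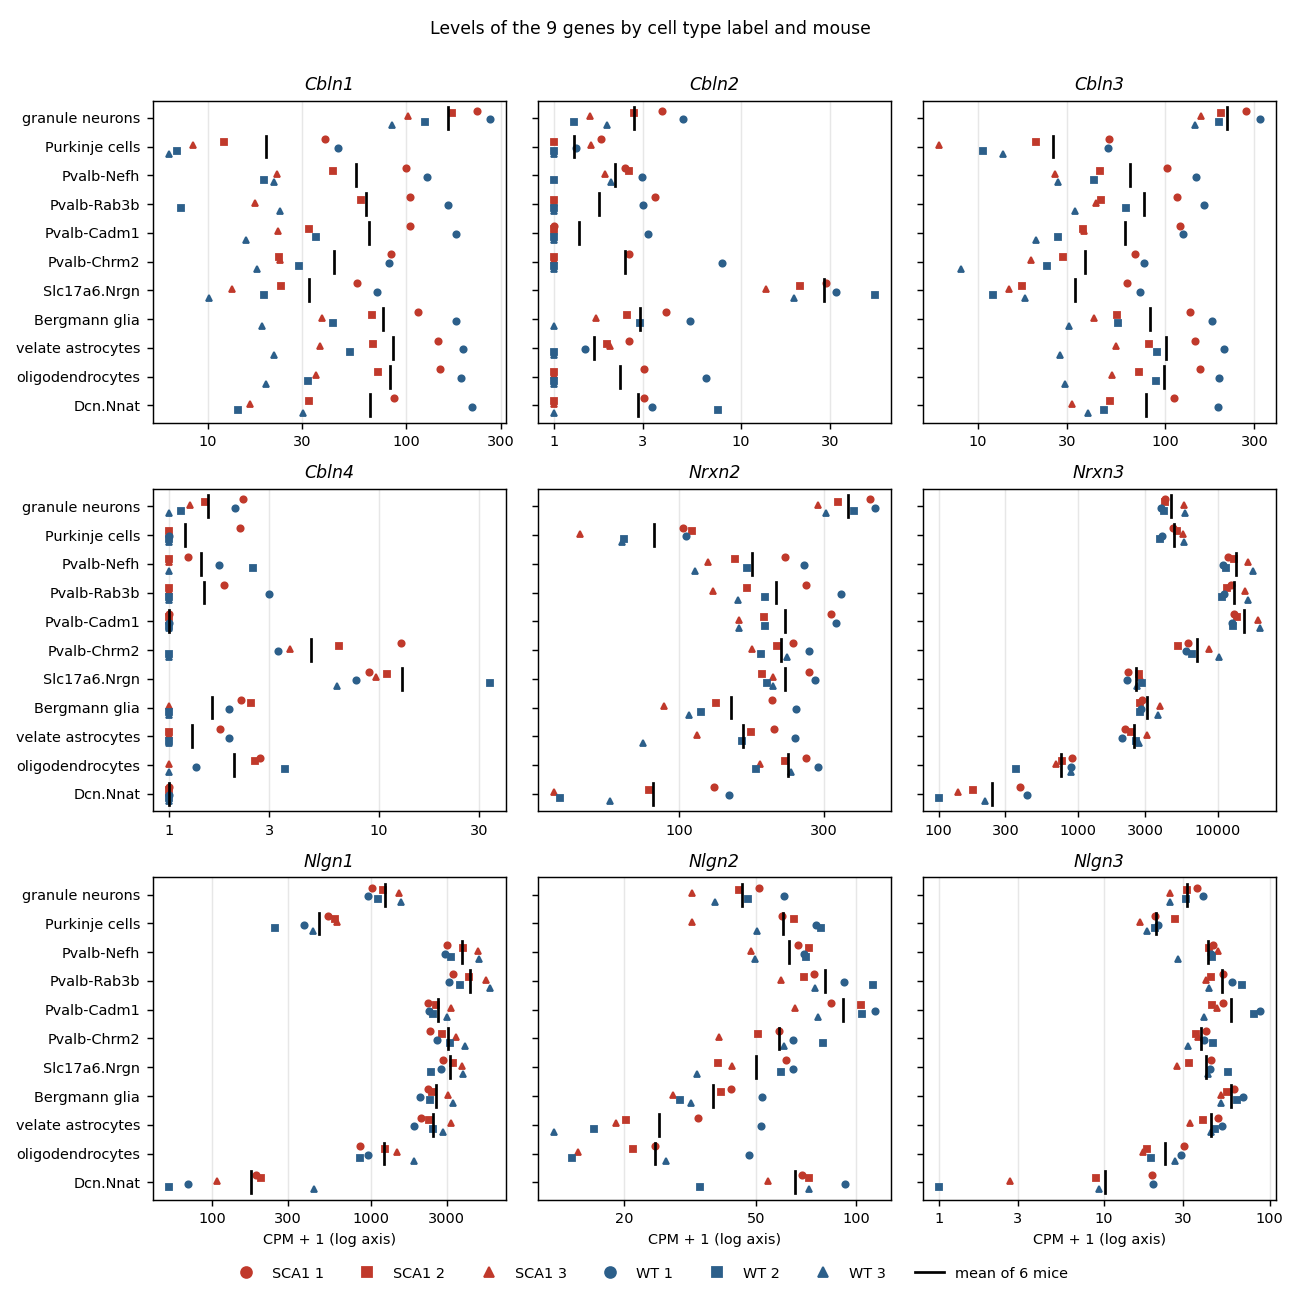
CPM + 1 on a log axis (x) of the 9 genes in the 11 labels (y), with a symbol for each of the 6 mice and a black bar at the mean. Cbln1, Cbln3 and Nrxn2 peak in granule neurons, Cbln2 and Cbln4 in the Slc17a6.Nrgn label, and Nrxn3 and Nlgn1 in inhibitory neuron labels.

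Of the presynaptic receptors, Nrxn2 was highest in granule neurons in 6 of 6 mice. Its granule level was 424, 332 and 286 CPM in the SCA1 mice and 439, 374 and 303 CPM in the WT mice, which overlap. The next 5 labels, from oligodendrocytes at 227 ± 42.1 CPM to Pvalb-Rab3b at 207 ± 78.9 CPM, did not separate, as neighbours kept their order in 3 or 4 of 6 mice. Purkinje cells were at 81.8 ± 26.6 CPM and Dcn.Nnat nuclei at 81.4 ± 45.8 CPM.

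Nrxn3 had its highest levels in inhibitory neurons. It was at 15223 ± 3419 CPM in Pvalb-Cadm1, at 13503 ± 2841 CPM in Pvalb-Nefh and at 12970 ± 2511 CPM in Pvalb-Rab3b, and the first of these was above the next in 6 of 6 mice. Pvalb-Chrm2 came next at 7068 ± 1895 CPM. Purkinje cells at 4830 ± 801 CPM and granule neurons at 4627 ± 860 CPM were not ordered, since Purkinje cells were higher in 3 of 6 mice. Glia were lower than these labels, at 3113 ± 495 CPM in Bergmann glia, 2492 ± 390 CPM in velate astrocytes and 746 ± 208 CPM in oligodendrocytes. The neuron label Slc17a6.Nrgn, at 2582 ± 267 CPM, was below Bergmann glia in 5 of 6 mice and above velate astrocytes in 4. Dcn.Nnat nuclei had 239 ± 134 CPM. The thinned share of nuclei with a Nrxn3 UMI was 47.2% ± 19.5 in oligodendrocytes and 98.3% ± 1.94 in Bergmann glia.

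Of the neuroligins, Nlgn1 and Nlgn3 had correlated patterns across labels but different highest labels, and the pattern of Nlgn2 was not correlated with that of Nlgn1. Nlgn1 was highest in the Sorcs3-high interneuron labels Pvalb-Rab3b and Pvalb-Nefh, at 4181 ± 1045 and 3762 ± 845 CPM. The former was above the latter in 6 of 6 mice. The Slc17a6.Nrgn label followed at 3144 ± 571 CPM and was above Pvalb-Chrm2 in 4 of 6 mice. The 2 astrocyte labels were close to Pvalb-Cadm1 and below Pvalb-Chrm2, which had 3042 ± 566 CPM, as Bergmann glia had 2578 ± 491 CPM, velate astrocytes 2462 ± 496 CPM and Pvalb-Cadm1 2638 ± 381 CPM. Granule neurons at 1223 ± 252 CPM and oligodendrocytes at 1207 ± 404 CPM came next and were ordered in 4 of 6 mice. Purkinje cells, at 468 ± 141 CPM, had the lowest Nlgn1 level of the neuron labels by CPM, 11.2% of the level in Pvalb-Rab3b, but not by UMIs per nucleus. After thinning, 52.1% ± 9.43 of Purkinje cell nuclei had a Nlgn1 UMI, against 74.9% ± 1.42 of granule neuron nuclei and 99.2% ± 0.82 of Pvalb-Rab3b nuclei.

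Nlgn2, the neuroligin of inhibitory synapses, was highest in Pvalb-Cadm1 at 90.1 ± 18.6 CPM and in Pvalb-Rab3b at 79.3 ± 18.9 CPM, ordered in 5 of 6 mice. Purkinje cells with 59.0 ± 17.2 CPM stood amid Dcn.Nnat, Pvalb-Nefh and Pvalb-Chrm2 nuclei and did not separate from them, as neighbours kept their order in 3 or 4 mice. Velate astrocytes at 24.4 ± 14.7 CPM and oligodendrocytes at 23.8 ± 12.3 CPM were lowest. Nlgn3 was at 57.9 ± 19.9 CPM in Pvalb-Cadm1 and at 57.4 ± 7.41 CPM in Bergmann glia, and of these Bergmann glia were the highest label in 4 of 6 mice and Pvalb-Cadm1 in 2. Purkinje cells with 19.5 ± 3.57 CPM of Nlgn3 were above Dcn.Nnat nuclei alone. Across the 11 labels, the mean log2(CPM + 1) of Nlgn1 and Nlgn3 had a Pearson r of 0.93, and that of Nlgn1 and Nlgn2 was 0.0036, as a description over labels that come from the same 6 libraries.

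Depth differed between labels, with medians from 5923 UMIs in granule neuron nuclei to 36467 UMIs in Purkinje cell nuclei. The order of labels changed when levels were given as UMIs per nucleus. On that scale Purkinje cells led for Nrxn3, with 183 ± 92.2 UMIs against 179 ± 85.4 in Pvalb-Cadm1, and for Nlgn2, with 2.02 ± 0.651 UMIs against 1.01 ± 0.319 in the Slc17a6.Nrgn label. The Slc17a6.Nrgn label led for Nrxn2, Nlgn1 and Nlgn3 with 4.73 ± 1.50, 68.2 ± 25.3 and 0.819 ± 0.187 UMIs. Granule neurons stayed first for Cbln1 and Cbln3 with 1.07 ± 0.744 and 1.39 ± 0.822 UMIs per nucleus, and the Slc17a6.Nrgn label for Cbln2 and Cbln4. Purkinje cells, which had the lowest mean CPM of Cbln1 and Cbln3, ranked 3 and 2 here with 0.730 ± 0.760 and 0.894 ± 0.853 UMIs. They also ranked 2 for Nlgn3 with 0.687 ± 0.202 UMIs. For Nlgn1, Purkinje cells ranked 8 with 18.0 ± 10.7 UMIs, above granule neurons with 7.72 ± 3.11 UMIs. Outside granule neurons, label means lay between 0.602 and 0.817 UMIs of Cbln1 and between 0.683 and 0.894 UMIs of Cbln3.

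Grid1, which encodes a postsynaptic receptor that cerebellins bind, was highest in Pvalb-Nefh at 1423 ± 305 CPM and in Pvalb-Rab3b at 1203 ± 302 CPM, ordered in 6 of 6 mice. In Purkinje cells Grid1 was at 5.05 ± 7.11 CPM and was listed at 0 in WT 2 and WT 3.

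Labels with too few nuclei for a test were read as pooled counts of all mice, with a 95% exact Poisson interval that covers counting error only. The 240 nuclei labelled Neuron.Gad1Gad2.Lgi2 had 9433 CPM of Nrxn3 (interval 9353 to 9514) and 3537 CPM of Nlgn1 (3488 to 3586). The 104 nuclei labelled Neuron.Slc17a6.Sln had 3436 CPM of Nlgn1 (3330 to 3545). The 125 microglia-labelled nuclei had 500 CPM of Nrxn3 (446 to 559) and 88.9 CPM of Nlgn1 (67.0 to 116). They had 120 CPM of Cbln1 (94.0 to 150) and 155 CPM of Cbln3 (126 to 190). Deeper libraries weigh more in pooled values, which differ from the means over mice given above. Pooled in the same way, velate astrocytes, oligodendrocytes and Bergmann glia had 119, 115 and 105 CPM of Cbln1. Their pooled levels of Cbln3 were 129, 125 and 112 CPM. Cbln2 had no UMI in the microglia-labelled nuclei, for which the same interval reaches up to 5.97 CPM and the limit of 3 UMIs is 4.85 CPM.

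The genes with the most similar pattern over the 11 labels were named by the Pearson r of mean log2(CPM + 1) among 13493 genes. For Cbln1 they were Neurod1, Nrep and Cbln3 with r of 0.99, 0.98 and 0.98, and for Cbln3 they were Neurod1, Cbln1 and Selenom with 0.98 each. Cbln2 was followed most closely by Lhx2, 1700094D03Rik and Qrfpr with r from 0.95 to 0.97, and Cbln4 by Gm44644, Gm12128 and Gm42303 with 0.98 each. Nrxn2 resembled Ubl4a, Tmem108 and Nap1l5 with r from 0.94 to 0.98, and Nrxn3 resembled P2ry12, Ivns1abp and P2ry14 with r from 0.94 to 0.97. For Nlgn1 the nearest genes were Acp1, Cacng8 and Wnk3 with r from 0.96 to 0.98, for Nlgn2 Mettl16, Col20a1 and Dhx33 with r from 0.94 to 0.96, and for Nlgn3 Gm29514, Gm47423 and Gm26803 with r from 0.94 to 0.97.

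Next, SCA1 and WT mice were compared in each label, to ask whether the genes of this synaptic bridge change when Purkinje cells carry mutant ATXN1. No member was called in any label by edgeR's quasi-likelihood test on the sums per mouse with the run as a term, at an adjusted p of at most 0.05 over all genes of the label. The members gave 80 tests in the 11 labels, since Cbln2 and Cbln4 passed the filter on low counts only in the Slc17a6.Nrgn label and in granule neurons and Nlgn3 failed it in Dcn.Nnat nuclei, and 0 of the 80 had an unadjusted p of at most 0.05, beside 2222 of 115781 tests over all genes. DESeq2 called 0 members as well. The background was as low, as 0% of all genes were called in Purkinje cells, Bergmann glia, velate astrocytes, Dcn.Nnat nuclei, the Slc17a6.Nrgn label and the 4 Pvalb labels, 0.00566% in granule neurons and 0.00917% in oligodendrocytes, which is the same gene, Gm12160, in both. A count of 0 members is therefore near the background. With the mouse number as a replicate block, 6 genes were called in granule neurons, 1 in velate astrocytes, 3 in Pvalb-Cadm1 and 2 in Pvalb-Rab3b, labels in which mice of the same number deviated together, as well as 172 in Purkinje cells and 8 in Bergmann glia, and 0 of these were members.

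In Purkinje cells, Nlgn1 was the only member whose genotypes did not overlap. Its level was 537, 595 and 615 CPM in the SCA1 mice and 382, 247 and 434 CPM in the WT mice. All SCA1 mice lay above all WT mice, which was also the case for 12% of all genes tested in Purkinje cells. The fitted log2 fold change was 0.52 ± 0.25 (SE, n = 3 mice per genotype) with an adjusted p of 0.809 by edgeR. Within the first run the log2 ratio was 0.49 and within the second 0.83. Leaving out each mouse in turn gave log2 fold changes from 0.27 without WT 2 to 0.78 without WT 3. With nuclei in place of mice as replicates, limma-trend on scran-normalised values, the test of the study's methods, called Nlgn1 in Purkinje cells at a log2 difference of 0.76 ± 0.21 (SE) with an adjusted p of 0.0287. That test takes nuclei of the same mouse as independent, so its error leaves out the spread between mice. The summed CPM of the 5 Purkinje cell markers moved with the genotype, at 11060 to 14310 in the SCA1 mice and 15048 to 18638 in the WT mice, with none of the 5 at 0, while the 4 granule neuron markers summed to 32.6 to 179 and 37.4 to 313 CPM in the same nuclei. The Purkinje cell list holds Calb1 and Itpr1, which the study reports as lowered in SCA1 mice, so its sum is not a neutral measure of purity. What part these markers had in the Nlgn1 difference was not tested.

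The other members in Purkinje cells overlapped between genotypes. Nlgn2 was at 58.5, 63.9 and 30.9 CPM in the SCA1 mice and at 74.4, 77.2 and 49.4 CPM in the WT mice, with the lowest value of each genotype in mouse 3. Its log2 fold change was -0.59 ± 0.28 (SE) with an adjusted p of 0.782 by edgeR. Nrxn3 was at 4754, 5095 and 5601 CPM in the SCA1 mice and at 3977, 3826 and 5725 CPM in the WT mice, with a log2 fold change of 0.01 ± 0.31. For Nlgn3, Nrxn2, Cbln1 and Cbln3 the log2 fold changes were -0.11 ± 0.29, -0.05 ± 0.28, -0.02 ± 0.34 and -0.17 ± 0.39. Cbln2 and Cbln4 did not pass the filter on low counts in Purkinje cells. The median log2 fold change was -0.05 over the 7 members tested and 0.02 over the 9821 genes tested in Purkinje cells.

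**Figure D3:**
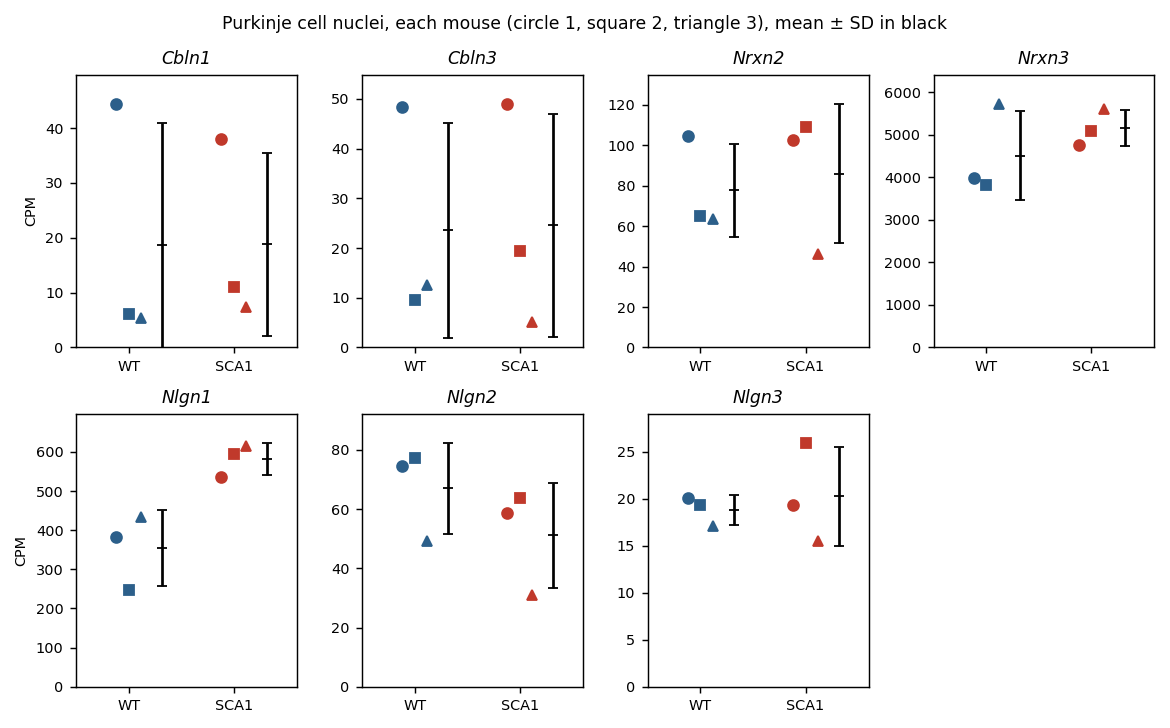
CPM (y axis, from 0) of 7 of the 9 genes in Purkinje cell nuclei of each WT (blue) and SCA1 (red) mouse, with the mean ± SD of 3 mice in black (cut off at 0 for Cbln1 in WT). Nlgn1 is the only gene with all SCA1 mice, at 537 to 615 CPM, above all WT mice, at 247 to 434 CPM.

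In the SCA1 mice, 10, 10 and 11 Purkinje cell nuclei had a UMI of human ATXN1, and these nuclei can be set beside those without. Nlgn1 was at 574, 602 and 776 CPM in nuclei with human ATXN1 and at 530, 592 and 509 CPM in nuclei without it in SCA1 1, 2 and 3. It was higher with the transgene UMI in 3 of 3 mice, narrowly in SCA1 2 and with the widest gap in SCA1 3. Both classes lay above the 247 to 434 CPM of the WT mice, but they make up the SCA1 sums compared above, so this is not a separate result. Cbln1 was lower with the transgene UMI in 3 of 3 mice, at 33.1, 5.96 and 5.77 CPM against 38.9, 13.4 and 8.54 CPM. Cbln3, Nrxn2, Nrxn3, Nlgn2 and Nlgn3 differed in direction between mice. The share of all genes higher in 3 of 3 mice was not counted. These values describe few nuclei without a test. A nucleus with few UMIs can miss the transgene, and the median depth was 34274 UMIs with and 7287 UMIs without it in SCA1 2.

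Whether the genotype acted differently in Purkinje cells and in granule neurons was tested with an interaction of label and genotype, with a term for each mouse. The log2 fold change of Nlgn1 was higher in Purkinje cells than in granule neurons by 0.50 ± 0.25 (SE) with an adjusted p of 1 by edgeR. For Nlgn2 the difference was -0.42 ± 0.23, with an adjusted p of 1. edgeR called 0 of the 8 members tested and 0% of the 16043 genes tested, and 0 of the members had an unadjusted p of at most 0.05.

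In granule neurons, the source of the Cbln1 and Cbln3 ligands, no member was called either. The log2 fold change was 0.14 ± 0.22 for Cbln1, -0.08 ± 0.18 for Cbln3, -0.14 ± 0.19 for Nrxn2 and -0.23 ± 0.14 for Nlgn2 (SE, n = 3 mice per genotype). The depth was high here, with 46607 UMIs of Cbln1 and 58762 UMIs of Cbln3 over the 6 mice, and the spread between mice set the error. In the Slc17a6.Nrgn label, Cbln2 had a log2 fold change of -0.49 ± 0.32 and Cbln4 of -0.10 ± 0.51, and both genotypes overlapped.

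Nlgn2 had a fitted log2 fold change below 0 in all 11 labels, from -0.66 ± 0.33 in oligodendrocytes to -0.00 ± 0.20 in Pvalb-Nefh, and none was called. Leaving out 1 mouse turned it above 0 in 5 of these labels, up to 0.48 in velate astrocytes and 0.22 in Dcn.Nnat without SCA1 1, 0.099 in Pvalb-Nefh without SCA1 3, 0.036 in Bergmann glia without WT 1 and 0.032 in Slc17a6.Nrgn without WT 2. The labels come from the same 6 mice and are not independent. The share of all genes with the same sign in all 11 labels was not counted. Other members leaned the same way. Nrxn2 was above 0 only in Dcn.Nnat and velate astrocytes, at 0.02 and 0.08. Where tested, Nlgn3 was above 0 only in Pvalb-Chrm2 and Pvalb-Nefh, at 0.03 and 0.26. For Nlgn2 the genotypes did not overlap in Pvalb-Rab3b, with 73.4, 68.5 and 58.2 CPM in the SCA1 mice and 90.5, 111 and 74.0 CPM in the WT mice. The same held in Pvalb-Chrm2, with 57.5, 49.5 and 37.6 CPM in the SCA1 mice and 63.4, 78.3 and 59.5 CPM in the WT mice. SCA1 mice lay wholly below WT mice for 2.71% of all genes tested in Pvalb-Rab3b and for 3.66% in Pvalb-Chrm2. The log2 fold changes were -0.43 ± 0.24 and -0.39 ± 0.27 (SE), with an adjusted p of 1.00 each by edgeR. In oligodendrocytes the values overlapped, at 23.8, 20.3 and 13.6 CPM in the SCA1 mice and 46.5, 13.0 and 25.8 CPM in the WT mice.

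In Bergmann glia, the glia whose processes surround the parallel fibre synapses, the 7 members tested had log2 fold changes from -0.18 to 0.16. In velate astrocytes they lay between -0.25 and 0.10, and in oligodendrocytes between -0.66 and 0.42. Nlgn1 was at 2280, 2426 and 3050 CPM in the SCA1 mice and at 2054, 2342 and 3314 CPM in the WT mice in Bergmann glia, where mouse 3 of each genotype was the highest. With nuclei as replicates, 0 members were called in these 3 glial labels.

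**Figure D4:**
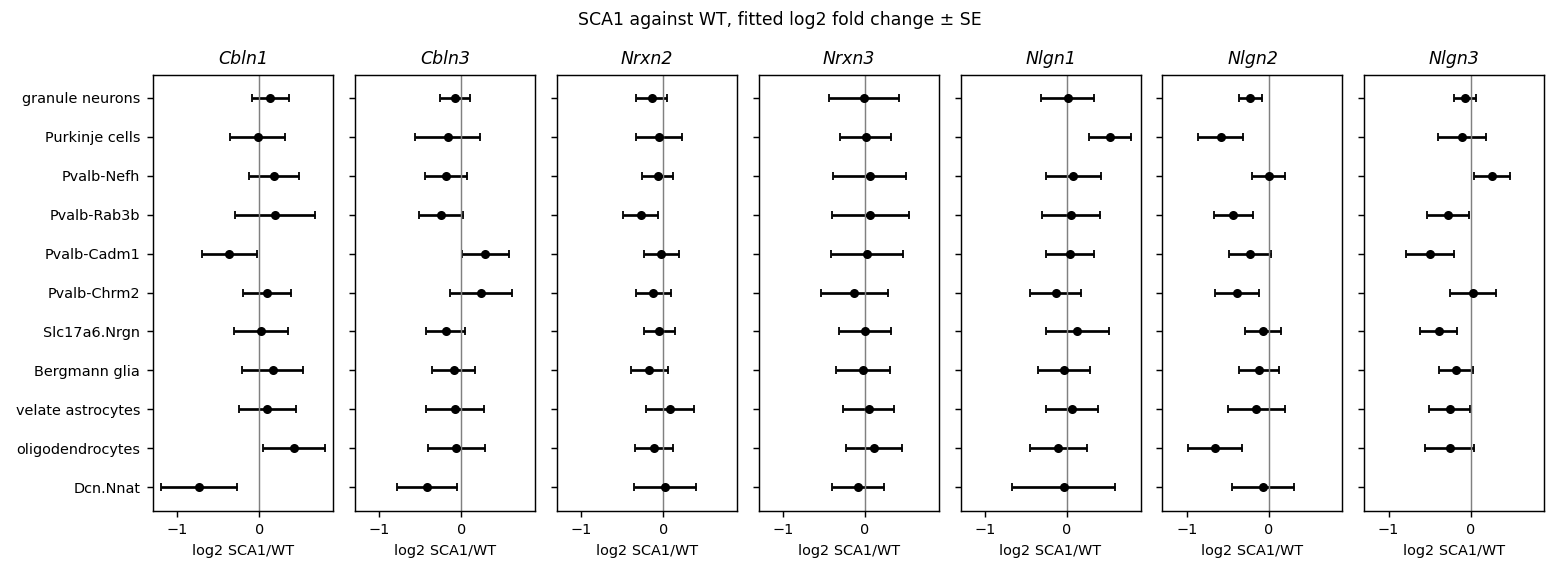
Fitted log2 fold change of SCA1 over WT (x axis, points) with its SE (bars) for 7 genes in the 11 labels (y axis); Nlgn3 was not tested in Dcn.Nnat nuclei. No point was called at an adjusted p of 0.05, and the Nlgn2 points lie at or left of 0 in each label. Most Nrxn2 and Nlgn3 points lie left of 0 too.

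Some of the genes were highest in mice of the same number in both genotypes. SCA1 1 and WT 1, the mice of the first run, held the highest 2 levels of Cbln1 and of Cbln3 in 11 of 11 labels and of Nrxn2 in 10. Mouse 3 of both genotypes held the highest 2 levels of Nlgn1 in 9 labels and of Nrxn3 in 8. For Cbln2, Cbln4, Nlgn2 and Nlgn3 the first-run mice were highest in 5, 3, 4 and 4 labels and mouse 3 of both genotypes in 0. Gabra6, Slc17a7 and Etv1 were highest in the first run in 9 of 11 labels each and Rbfox3 in 8. The run and the replicate number cannot be told apart for mouse 1, since each genotype had 1 library in the first run.

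A list of 51 further genes of these synapses, with receptors of cerebellins, C1q-like ligands, other neurexin and neuroligin partners, LAR-type receptors and scaffold proteins, gave 427 tests in the 11 labels. edgeR called 0 of them, and 12 had an unadjusted p of at most 0.05, beside 2222 of 115781 tests over all genes. In Purkinje cells, 37 of the list were tested, 5 of them had an unadjusted p of at most 0.05 beside 653 of 9821 over all genes, 5 had all SCA1 mice above all WT mice and 2 had them below, where 12% and 2.57% of all genes did. Among the genes whose genotypes did not overlap, the largest increase was estimated for Khdrbs3, which encodes a splicing factor that acts on neurexin transcripts, at 16.2, 21.3 and 10.9 CPM in the SCA1 mice and 8.02, 7.23 and 7.18 CPM in the WT mice, with a log2 fold change of 0.88 ± 0.37. Ptprs and Dag1 followed with 0.28 ± 0.19 and 0.20 ± 0.21. The postsynaptic scaffold gene Shank2 was at 1252, 1239 and 1509 CPM in the SCA1 mice and 1689, 1826 and 1969 CPM in the WT mice, with -0.63 ± 0.24. The median log2 fold change of the list in Purkinje cells was -0.03.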

How the data were processed

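Nuclei of whole cerebellum were profiled by the authors with 10x 3′ chemistry, and the deposited tables hold whole UMI counts per gene and nucleus, together with a Seurat cluster and a SingleR cell type label for each nucleus. Per the labels, Cell Ranger 5.0.1 (4.0.0 and 6.0.1 are also listed), R 4.1.0 and Seurat 4.0.4 were used on mm10, and per the study's methods introns were counted, the human ATXN1 locus was added to the reference, and debris was removed with a floor of UMIs that was higher in the first run. Empty droplets, doublets and free RNA were not treated again here, and no doublet caller is named in the sources used here. Labels were used as deposited, without the study's further condition that label and cluster match, which is an alternative. Counts do not tell a gene from an overlapping or antisense transcript. The methods put 2 libraries in a first run without naming them. The run was inferred from library numbers, with SCA1 1 and WT 1 as the first run, and their shallowest nuclei had 3890 and 3932 UMIs.

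Counts were summed per mouse and label with Python 3.11.15 and labels with at least 20 nuclei in each mouse were tested with edgeR 4.0.16 in R 4.3.3 (quasi-likelihood test, TMM factors, filterByExpr, terms for run and genotype, Benjamini-Hochberg adjustment, threshold 0.05). Fold changes are SCA1 over WT. Scripts were tested on simulated data. DESeq2 1.42.0, limma 3.58.1 and scran 1.30.0 served the alternatives. In thinned shares, each nucleus of at least 3000 UMIs was given its hypergeometric chance of keeping a UMI among 3000, and shallower nuclei were left out. Mice are separate animals, 3 per genotype. Members were given by name, and the named partner genes were Grid1, every called gene of the list and, in Purkinje cells, the 3 largest increases and decreases among those whose genotypes did not overlap, of which 1 is not reported here; genes of like pattern were the 3 with the highest r among genes of at least 10 CPM in a label. Members and lists were chosen with earlier results of these data known. Gene positions are from GENCODE vM21, matched by symbol.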

Additional observations from a re-analysis of the deposited data

How the results depend on the processing

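Every alternative fit on sums per mouse left the number of members called at 0 in each label. With nuclei as replicates, 1 member, Nlgn1 in Purkinje cells at a log2 difference of 0.76, was called, and all genes called came to 348 in Bergmann glia, 140 in velate astrocytes, 407 in Purkinje cells and 152 in oligodendrocytes. The number of all genes called was less stable, and the causes were not tested. DESeq2 called 2 genes in Bergmann glia, 66 in Purkinje cells and 14 in granule neurons, and RLE factors gave 8 in Purkinje cells. Without the filter on low counts there were 15 in Bergmann glia, 13 in Dcn.Nnat, 4 in velate astrocytes, 223 in Purkinje cells, 17 in Pvalb-Cadm1, 28 in Pvalb-Chrm2, 8 in Pvalb-Rab3b, 31 in Slc17a6.Nrgn, 2 in granule neurons, 5 in oligodendrocytes and 58 for the difference between Purkinje cells and granule neurons. Without the run as a term, 0 genes were called in granule neurons and 0 in oligodendrocytes. Where only nuclei whose label was also that of their cluster were kept, 1 gene was called in Purkinje cells, 0 in oligodendrocytes and 1 for the difference, and Dcn.Nnat, Pvalb-Chrm2, Pvalb-Rab3b and Slc17a6.Nrgn were not fitted because a mouse had no such nucleus. Leaving out each mouse in turn gave 0 to 2 genes in Bergmann glia, 0 to 8 in velate astrocytes, 0 to 6 in Purkinje cells, 0 to 3 in Pvalb-Cadm1, 0 to 1 in Pvalb-Nefh, 0 to 2 in Pvalb-Rab3b, 0 to 1 in granule neurons, 0 to 1 in oligodendrocytes and 0 to 4 for the difference.

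When the run was replaced by a replicate block (mouse 1, 2 or 3), 8 genes were called in Bergmann glia, 1 in velate astrocytes, 172 in Purkinje cells, 3 in Pvalb-Cadm1, 2 in Pvalb-Rab3b and 6 in granule neurons, and the log2 fold change of Nlgn1 in Purkinje cells was 0.55 with an adjusted p of 0.134 by edgeR. That of Nlgn2 in Purkinje cells was -0.60 with an adjusted p of 0.152 by edgeR. The deviations of mice 1, 2 and 3 correlated with those of the same number at 0.67, 0.067 and 0.50 in Purkinje cells, at 0.76, 0.041 and 0.62 in Bergmann glia and at 0.87, 0.26 and 0.78 in granule neurons. The pairs numbered 1 and 3 correlated in every label, at 0.47 or more and at 0.44 or more. All 3 were above 0.1 in 5 of 11 labels (granule neurons, velate astrocytes, Pvalb-Cadm1, Pvalb-Nefh and Pvalb-Rab3b) and the pair numbered 2 was not in the other 6. The numbers were therefore not taken to pair the mice across labels. A fit with the run as its term leaves the likeness of the mice numbered 3 in its error. No label tells whether the numbers mark a shared litter or day.

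Small log2 fold changes turned sign, those of Nlgn2 in 5 labels included. In Purkinje cells, Cbln1 was at 0.029 by DESeq2, Nrxn3 at -0.014 by DESeq2 and at -0.014 with RLE factors, and Nlgn3 at 0.013 with nuclei as replicates. Leaving out each mouse in turn gave from -0.18 to 0.48 for Cbln1, from -0.51 to 0.13 for Cbln3, from -0.40 to 0.19 for Nrxn2, from -0.16 to 0.24 for Nrxn3 and from -0.28 to 0.027 for Nlgn3 in Purkinje cells, from -0.57 to 0.39 for Cbln4 in Slc17a6.Nrgn, and from -0.066 to 0.31 for Cbln1 and from -0.16 to 0.014 for Cbln3 in granule neurons. By UMIs per nucleus, granule neurons ranked 5 for Nrxn2, Pvalb-Cadm1 ranked 2 for Nrxn3, 4 for Nlgn2 and 4 for Nlgn3, and Pvalb-Rab3b ranked 4 for Nlgn1. In nuclei of at least 3000 UMIs Pvalb-Cadm1 ranked 2 for Nlgn3. Depth limits Cbln2 and Cbln4, and the 29 Purkinje cell nuclei of SCA1 3 and of WT 3 limit the comparison in that label.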
